A study of Danio rerio with 11 samples.

Results

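The baseline transcriptome of the wild-type (WT) larval zebrafish liver was described from 6 pools of dissected livers, out of 11 liver pools in the series. All 6 libraries that the labels name as WT siblings were taken and no other library entered any value below. The WT larvae were the non-fluorescent siblings of larvae that carried the transgene Tg(fabp10a:hUHRF1-EGFP)high, in which the hepatocyte promoter of fabp10a drives human UHRF1 fused to EGFP. The WT larvae carried no transgene and received no agent besides the anaesthetic used at dissection, and the labels give no strain. Each pool held 20 livers taken by hand at 120 hours post-fertilization (hpf), that is 5 days, and each came from 1 clutch, numbered 4 to 9. A library is thus an average over 20 larvae and over every cell type that came away with the liver, and the pools can differ in parents and day as well as in the larvae themselves. The titles of clutches 4, 5 and 6 are worded differently from those of clutches 7, 8 and 9, and these 2 sets of 3 pools are compared at the end. The labels state an incross of transgenic fish where the study's methods state a cross to WT fish, and they count 5 clutches where 6 WT pools are present.

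The liver makes most of the proteins dissolved in blood plasma, among them the apolipoproteins that carry lipid, the carriers of metals, hormones and vitamins, the complement proteins and the clotting factors. Hepatocytes also make and use glucose, break down amino acids, run the methionine cycle and modify drugs and steroids with cytochrome P450 enzymes. In zebrafish larvae of this age the liver is already working and yolk lipid is being used up, and the pancreas and gut lie directly against it.

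Total RNA was depleted of ribosomal RNA and sequenced, and the deposited values were read counts for 32105 Ensembl gene IDs. The 6 libraries held between 15285359 and 23322479 counts. The RNA genes rn7sl1 (the RNA of the signal recognition particle) and ENSDARG00000080337, which has no name in the tables used, together took between 20.5 and 27.3% of the counts and were removed, which left between 12151400 and 18409781 counts per pool. All shares and CPM values below refer to that remainder, and CPM scales each gene's count by its pool's total. CPM is not divided by gene length, so an order of genes by CPM is an order of counts taken and not of molecules. Values after ± are standard deviations over the 6 pools, values of single pools are given in the order of clutches 4, 5, 6, 7, 8 and 9, and functions are lists of genes matched by symbol, 35 in all. The lists held 63.6% of the counts.

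The pools carried the markers of liver. All 20 genes of a hepatocyte marker list had at least 1 CPM, and their sum was 144123, 149054, 132712, 152904, 136375 and 140175 CPM. The sum of 22 genes of the exocrine pancreas was far smaller and far less even, at 1232, 860.4, 4307, 1623, 1068 and 2597 CPM, so that the clutch 6 pool held 5.01 times as much as the clutch 5 pool. In bulk tissue, fewer cells of a type and less RNA per cell cannot be told apart. The 11 genes of a biliary cell list summed to 1858 ± 169 CPM, of which the keratin gene krt8 made up 60.5%. The 21 genes of an intestine list summed to 1449 ± 212 CPM, of which 1 retinol-binding gene, rbp2, made up 78.1%. Erythrocyte genes (18) summed to 389 ± 145 CPM with hbaa1 and hbbe3 at 0 in every pool, and muscle genes (14) to 381 ± 160.2 CPM. Endothelial genes (17) summed to 348 ± 41.8 CPM and stellate cell genes (16, ednrab at 0) to 302 ± 49.1 CPM. The smallest sums were those of macrophage (21 genes, 47.03 ± 13.5 CPM), neutrophil (9 genes, 29.7 ± 3.34 CPM) and endocrine pancreas genes (8 genes, 2.09 ± 0.277 CPM). Some genes in these lists, krt8 for one, are also known from hepatocytes.

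**Figure D1:**
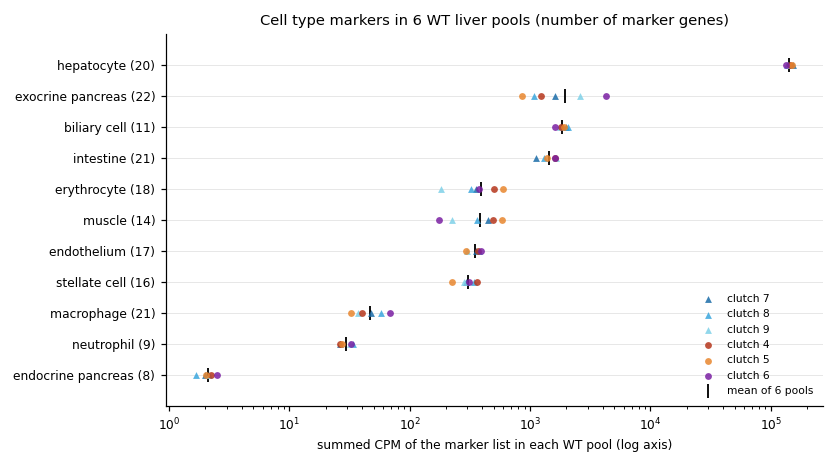
Summed CPM of 11 lists of cell type markers in each of the 6 WT pools (log axis), with the number of genes in each list, 1 symbol per pool (triangles, clutches 7 to 9; circles, clutches 4 to 6) and a bar at the mean. The hepatocyte sum lay between 132712 and 152904 CPM in all pools, while the exocrine pancreas sum ran between 860.4 CPM in clutch 5 and 4307 CPM in clutch 6.

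A small number of genes took most of the counts. A count was seen for 26687 genes, and 13941 had a mean of at least 1 CPM. The 1022 genes with at least 100 CPM held 81.0% of the counts, the 161 genes with at least 1000 CPM held 55.4%, and the 9 genes with at least 10000 CPM held 21.1%. By mean CPM, 113 genes reached 50% of the counts, and the number needed in a single pool lay between 92 (clutch 7) and 145 (clutch 6). The 25 leading genes together held 31.2 ± 1.68% of the counts, and 18 of them were among the leading 25 of every pool.

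The 2 leading genes were both apolipoproteins of high-density lipoprotein. apoa1b, which encodes the main protein of these particles, had 59226, 62526, 51989, 50188, 42868 and 49021 CPM. apoa2, which encodes their second protein, had 42965, 40829, 38342, 56216, 56202 and 59188 CPM. Clutch 5 was highest for apoa1b and clutch 9 for apoa2. By library size, their sum was steadier than either gene, at 10.2, 10.3, 9.03, 10.6, 9.91 and 10.8% of the counts. Its coefficient of variation (CV, the SD as a percentage of the mean) was 6.28%, where apoa1b alone had 13.6% and apoa2 alone 18.8%. How even the sum and each gene are depends on this scale, and the sum was not taken on another one. apobb.1, a gene of apolipoprotein B, which is a protein of very low-density lipoprotein, came next with 26086, 17342, 18824, 29212, 32779 and 22855 CPM.

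Other genes of the leading 10 were spread over other hepatocyte functions. fabp10a, the fatty acid and bile acid binding protein of the fish liver, had 21128, 21499.7, 15229, 26512, 17993 and 16558 CPM and made up 96.9% of the counts of its family. The iron carrier transferrin (tfa) had 10434, 17399, 20614, 13424, 11594 and 16121 CPM, highest in clutch 6 and lowest in clutch 4. The retinol carrier rbp4 was far more even, at 13085, 15638, 12179.6, 12261, 12894 and 13327 CPM. The mitochondrial gene mt-co1, which encodes a subunit of cytochrome c oxidase, had 14179, 9829, 9487, 7517, 11234 and 12554 CPM. ces2a, a carboxylesterase, had 9192, 8121, 8066, 11707, 12438 and 13165 CPM, and the glycolytic gapdh had 9469.7, 10356, 6685, 11861, 11085 and 9992 CPM.

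Of the 25 leading genes, 9 belonged to the plasma proteins, 3 were mitochondrial messenger RNAs (mRNAs) and 5 were in no list. The plasma proteins outside the leading 10 were apoc1 (7115 ± 1603 CPM), the inter-alpha-trypsin inhibitor chain itih3b.2 (6811 ± 1304 CPM), a second apolipoprotein B gene apob (6480.0 ± 1620.0 CPM) and the antitrypsin serpina1 (4133 ± 741 CPM). The others in lists were agxt, which detoxifies glyoxylate (8495 ± 1825 CPM), the elongation factor eef1a1l1 (7829 ± 735 CPM), the lipid peroxide reductase gpx4a (6235 ± 676 CPM), the chaperone hspa8 (6029.6 ± 761 CPM), mt-co2 (5208 ± 1024 CPM), mt-co3 (4371 ± 777 CPM) and the nuclear RNA rn7sk (4823 ± 1505 CPM). Besides ces2a, the genes in no list were soul5 (5779.6 ± 1740.5 CPM), zgc:158463 (4436 ± 7182 CPM), and the unnamed ENSDARG00000102492 (8747 ± 2722 CPM) and ENSDARG00000101840 (4865 ± 1422 CPM). zgc:158463 owed its place to 1 pool: it had 19004 CPM in clutch 6 and between 415 and 2356 CPM in the other 5 pools, and RefSeq types it as ribosomal RNA. Among the leading 100 genes, 29 encoded plasma proteins and 11 ribosomal proteins, and 22 were in no list.

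**Figure D2:**
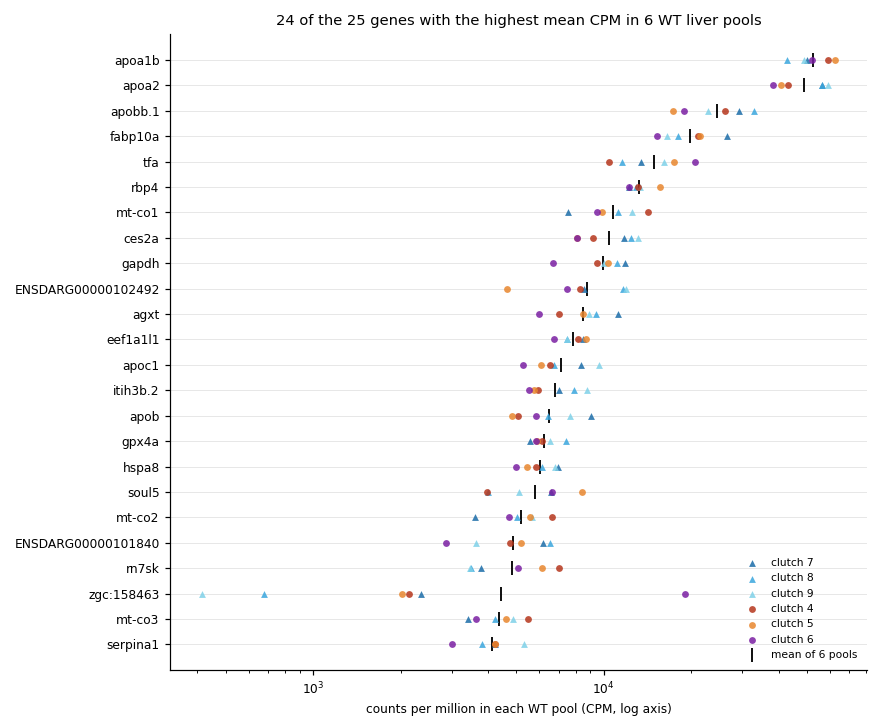
CPM of 24 of the 25 genes with the highest mean in each of the 6 WT pools (log axis), ordered by mean, with 1 symbol per pool (triangles, clutches 7 to 9; circles, clutches 4 to 6) and a bar at the mean. The pools of most genes lie close together, while zgc:158463 had 19004 CPM in clutch 6 and no more than 2356 CPM in any other pool.

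Plasma proteins were the largest function. The 154 genes of 4 lists (apolipoproteins, complement, coagulation factors, and other carriers, inhibitors and acute phase proteins) held 25.1, 26.01, 23.9, 27.1, 26.9 and 27.8% of the counts, a mean of 26.2 ± 1.44%. The share was lowest in clutch 6 and highest in clutch 9, and the highest was 1.16 times the lowest. The summed share had a CV of 5.50%, whereas the median CV of the 112 members with at least 10 CPM was 25.02%, and 1 of the 112 had a smaller CV than the sum. A sum averages over its members, and this was not particular to plasma proteins. The CV of the sum was below the median CV of the members in every list. For liver transcription factors and nuclear receptors the values were 6.79% and 24.1%.

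Apolipoproteins alone held 14.8, 14.3, 12.9, 16.1, 15.4 and 15.8% of the counts (14.9 ± 1.15%), and apoa1b was 35.4% of that. Below the leading genes stood apoa4b.1, an apolipoprotein A-IV linked to dietary lipid (3319 ± 957 CPM), apom (777 ± 150.3 CPM) and apoc2, the cofactor of lipoprotein lipase (762 ± 215 CPM). Several lesser members were uneven. apod, a carrier of small lipids, had 1325, 7024, 3818, 2407, 2063 and 2392 CPM, with clutch 5 highest. apoeb, an apolipoprotein E gene, had 425, 126, 191, 106, 504 and 289.7 CPM, and the paralog of the leading gene, apoa1a, had 283, 39.2, 115, 181, 163 and 139 CPM. apoa4b.2 had 296, 177, 279.8, 9.96, 205 and 236 CPM, so that 5 pools lay close together and clutch 7 lay far below them. Its SD of log2 CPM was 1.87 over the 6 pools and 0.31 without clutch 7. apoa4b.1 and apoa4b.2 are near relatives, and the counting could divide reads between them.

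Carriers, protease inhibitors and acute phase proteins held 6.96, 8.39, 7.15, 7.77, 7.96 and 8.34% of the counts (7.76 ± 0.597%). Behind tfa, rbp4 and itih3b.2 came fetub, a fetuin (2756 to 5923 CPM, median 3381), a2ml, a broad protease inhibitor of the alpha-2-macroglobulin family (2434 to 4391 CPM, median 3368), gc, the carrier of vitamin D (1489 to 4285 CPM, median 3432), the selenium carrier selenop (1819 to 3671 CPM, median 3238) and the transthyretin gene ttr, which carries thyroid hormone (1613 to 2250.1 CPM, median 1801). fetub was highest in clutch 4, and gc was at its lowest in clutches 4 and 6. The list also held some of the most uneven genes of the liver. Hepcidin (hamp), the hormone that limits iron uptake, had 1042, 112, 288, 193, 950.0 and 1266 CPM. It was high in clutches 4, 8 and 9 and low in the other 3 pools. The haemopexin gene hpxa, whose product binds free haem, had 12.3, 238, 251, 43.3, 58.3 and 25.01 CPM, with clutches 5 and 6 apart from the rest. The pentraxin gene apcs had 213, 41.02, 302, 129, 709 and 259 CPM, highest in clutch 8, and crp5, another pentraxin gene, had 974, 385, 853, 1423, 1013 and 207 CPM, highest in clutch 7.

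Complement genes held 1.66, 1.60, 2.09, 1.57, 1.87 and 1.77% (1.76 ± 0.196%). The central component C3 was represented by several genes, of which c3a.1 had 3339, 3457, 5168, 2542, 2564 and 2626 CPM. Clutch 6 was highest for c3a.1. cfhl4, related to the inhibitor factor H, had 2123 to 3261 CPM, median 2684, and factor B (cfb) 1386 to 2455 CPM, median 1994. The genes of the terminal complex differed in evenness. c8b had 319, 319, 349, 305, 328 and 331 CPM, an SD of log2 CPM of 0.07 that was the second smallest among the 1022 genes with at least 100 CPM, and c8a had 389 to 488 CPM, median 447. c7b had 72.8, 129.5, 156, 25.7, 77.3 and 74.3 CPM and an SD of 0.91.

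Coagulation factors held 1.71, 1.69, 1.76, 1.69, 1.71 and 1.90% (1.74 ± 0.0821%). By library size, the CV of this share (4.71%) was the smallest of any function, and functions were not ordered by CV on another scale. The fibrinogen chain fgg had 3219, 3407, 3054, 3892, 4104 and 4271 CPM, antithrombin (serpinc1) 1788 to 2482 CPM, median 2369, plasminogen (plg) 1488 to 2323 CPM, median 1743 and prothrombin (f2) 1089.8 to 1478 CPM, median 1313. The fibrinogen chains did not keep a fixed ratio: fgb had 1829, 1019, 1344, 705, 728 and 1287 CPM and was the most uneven gene of the list, with an SD of log2 CPM of 0.54 against 0.20 for fgg. The steadiest member was serpind1 (heparin cofactor II), with 429.6 to 513 CPM, median 464.

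**Figure D3:**
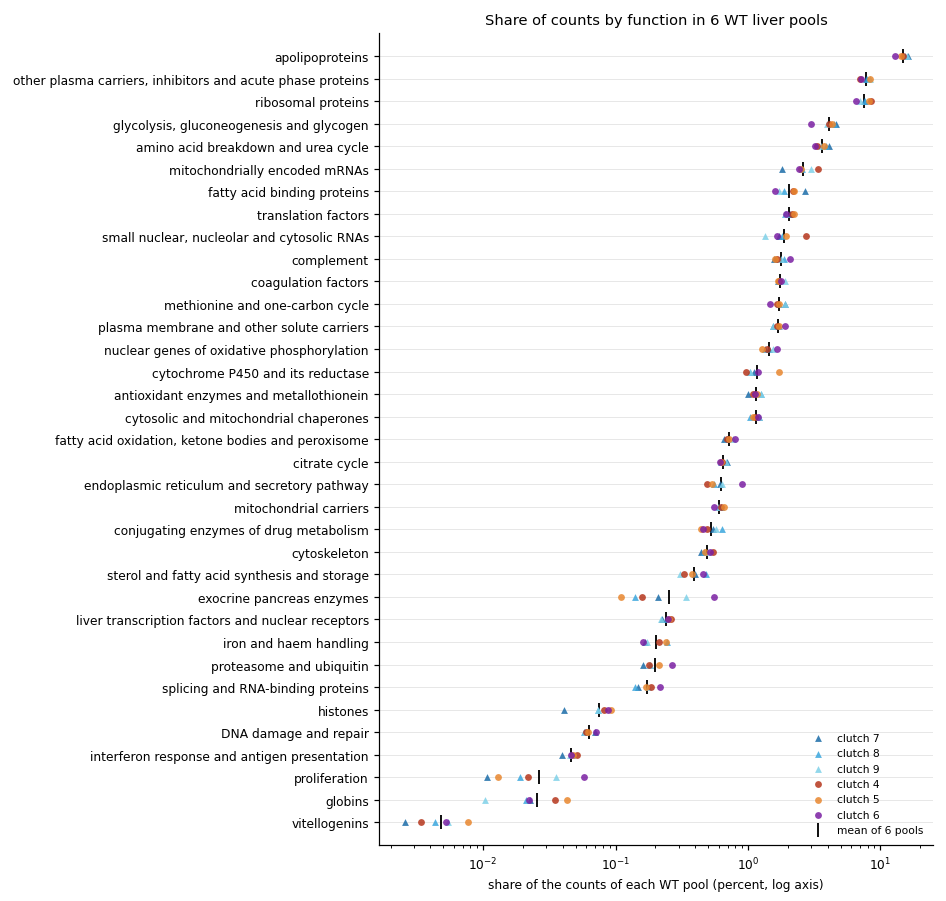
Share of the counts of each of the 6 WT pools taken by 35 functions (percent, log axis), ordered by mean, with 1 symbol per pool (triangles, clutches 7 to 9; circles, clutches 4 to 6) and a bar at the mean. Apolipoproteins held 14.9 ± 1.15% and ribosomal proteins 7.55 ± 0.717%, while the share of exocrine pancreas enzymes ran between 0.109% in clutch 5 and 0.557% in clutch 6.

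The protein-making machinery was the second large block. Ribosomal proteins (87 genes) held 8.44, 8.13, 6.48, 7.57, 7.67 and 7.02% of the counts (7.55 ± 0.717%), with rplp0, rpl3 and rps3a in front. Clutch 4 had the largest share and clutch 6 the smallest. rplp0, a protein of the ribosomal stalk, had 3404, 3267, 3111, 3156, 3124 and 3462 CPM. rpl3 had 2259.6 to 3134 CPM, median 2886 and rps3a 1598 to 2289.5 CPM, median 2103. Translation factors held 2.03 ± 0.132%, of which eef1a1l1 was 38.5%, followed by eef2b (2615 ± 394 CPM) and eef1g (1656 ± 160.3 CPM). The endoplasmic reticulum and secretory pathway, through which plasma proteins leave the cell, held 0.492, 0.536, 0.901, 0.616, 0.549 and 0.633%, with clutch 6 above the rest. Its leading genes were the protein disulfide isomerases p4hb (1154 ± 164 CPM) and pdia3 (459 ± 111 CPM) and the translocon channel sec61a1 (778 ± 69.5 CPM). Cytosolic and mitochondrial chaperones held 1.14 ± 0.0724%, of which hspa8 was 52.7%.

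Sugar metabolism came next. Glycolysis, gluconeogenesis and glycogen held 4.11, 4.28, 2.997, 4.58, 4.47 and 3.92% (4.06 ± 0.572%), with clutch 6 lowest. Besides gapdh, a large member was fbp1b, the fructose bisphosphatase of gluconeogenesis, with 1665, 1945, 1288, 2108, 2049 and 1919 CPM, also lowest in clutch 6. The glycogen branching enzyme gbe1 was the steadiest of the list, with 211, 204, 233, 212, 217 and 241 CPM and an SD of log2 CPM of 0.09. Glucokinase (gck), which traps glucose in the hepatocyte after feeding in mammals, was the opposite, with 165, 4.81, 45.2, 20.2, 0.955 and 18.1 CPM. Its highest pool, clutch 4, was 172 times its lowest, clutch 8.

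Amino acid breakdown and the urea cycle held 3.64 ± 0.343%. agxt had 7012, 8464, 5997, 11185, 9380.4 and 8931 CPM, tyrosine aminotransferase (tat) 2507 to 4887 CPM, median 3653 and glutamate dehydrogenase (glud1b) 2629.5 to 3513 CPM, median 3190.3. uroc1, an enzyme of histidine breakdown, was steady at 617 to 718 CPM, median 686, and mmut, which ends the breakdown of branched-chain amino acids and odd-chain fatty acids, varied most, at 32.2 to 114 CPM, median 44.8. The methionine and one-carbon cycle held 1.73 ± 0.167%. Its largest members were the betaine-dependent methyltransferase bhmt (3046 to 4856 CPM, median 3949), ahcy, which removes S-adenosylhomocysteine (2408 to 3290.3 CPM, median 3118), and gamt, which makes creatine (1199 to 3399 CPM, median 2053). ahcy was lowest in clutch 6. mat2a (ENSDARG00000040334), the S-adenosylmethionine synthase known in mammals from tissues other than liver, had 113, 180.1, 146, 459.8, 87.7 and 181 CPM, with clutch 7 apart from the rest. A second ID named mat2a, ENSDARG00000037121, was instead high in clutch 5, at 228 CPM beside a median of 76.3 CPM in the other pools. The adult liver form mat1a had 1559 to 2429 CPM, median 1959.

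Lipid metabolism took fewer counts. Fatty acid oxidation, ketone bodies and peroxisomes held 0.724 ± 0.0542%, led by scp2a, a peroxisomal lipid transfer protein (968 to 1476 CPM, median 1169), the dehydrogenase acadm (711 to 1145 CPM, median 895) and cpt1ab, the gate of fatty acid entry into mitochondria (284 to 527 CPM, median 411). Sterol and fatty acid synthesis and storage held 0.392 ± 0.0692%, led by the phosphatidate phosphatase lpin1 (458 to 1610.0 CPM, median 1043), mttp, which loads lipid onto apolipoprotein B (464 to 794 CPM, median 698), and the lipoprotein receptor gene ldlra (365 to 715 CPM, median 486).

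Mitochondrial genes were read in both genomes. The 13 mitochondrially encoded mRNAs held 3.39, 2.52, 2.44, 1.80, 2.54 and 2.995% (2.61 ± 0.538%), highest in clutch 4 and lowest in clutch 7. mt-nd3 was the steadiest, with 836, 707, 721, 714, 925 and 906 CPM, and mt-atp8 the most uneven, with 71.9, 49.9, 73.9, 6.91, 12.8 and 15.9 CPM. mt-atp8 overlaps mt-atp6 on the same strand, and how reads in the overlap were assigned bears on its value. Nuclear genes of oxidative phosphorylation held 1.40, 1.27, 1.65, 1.45, 1.34 and 1.54% (1.44 ± 0.139%), led by the ATP synthase subunit atp5f1b (1429.7 to 2159.9 CPM, median 1877). Their order of pools was not that of the mitochondrial mRNAs, since clutch 6 was highest and clutch 5 lowest. The citrate cycle held 0.645 ± 0.0345%, led by the malate dehydrogenase mdh1 (1562 to 2156 CPM, median 1998), and mitochondrial carriers held 0.608 ± 0.0363%, of which the ADP/ATP carrier slc25a5 was 59.4%.

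Among genes of drug and steroid metabolism, the spread of the P450 list was smaller without its leading gene. Cytochrome P450 genes and their reductase held 0.971, 1.73, 1.18, 1.11, 1.03 and 1.04%, with clutch 5 highest. cyp1a1, which is switched on by ligands of the aryl hydrocarbon receptor, had 1596, 6096, 3221, 826, 1289 and 1383 CPM and made up 20.4% of the list. Without it, a step chosen after the values were seen, the list held 0.812, 1.12, 0.861, 1.03, 0.900 and 0.899%, and its CV was 12.2% in place of 23.8%. The P450 reductase gene por had 409, 869, 455, 203, 234 and 323 CPM, also highest in clutch 5. cyp24a1, which inactivates vitamin D, had 1904, 2407, 2293, 1269, 1380.0 and 1099.6 CPM. cyp7a1, the rate-limiting enzyme of bile acid synthesis, had 327, 446, 209, 815, 623 and 764 CPM. It was higher in each of clutches 7, 8 and 9 than in any other pool, whereas cyp24a1 was lower. Of the 45 genes of the list with at least 10 CPM, 3 were higher and 4 lower in this way by library size. Of all genes of that level, 4.28% were higher and 19.7% lower. Conjugating enzymes held 0.524 ± 0.0751%, led by the glutathione transferase gstt1a (901 to 1517 CPM, median 1238) and the glucuronosyltransferase ugt5b4 (278 to 732 CPM, median 521). Antioxidant enzymes held 1.15 ± 0.0943%, of which gpx4a was 54.2%, followed by prdx1 (1173 to 1893 CPM, median 1456) and catalase (cat, 347 to 737 CPM, median 529.8). Genes of iron and haem handling held 0.200 ± 0.0381%, led by the ferritin genes fthl27 (388 to 1349.8 CPM, median 903) and fth1a (493 to 752 CPM, median 626). The haem oxygenase gene hmox1 had 142, 23.5, 42.5, 25.3, 10.4 and 51.6 CPM, highest in clutch 4.

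Transcription factors and nuclear receptors of the liver took few counts. By library size they were among the functions with an even sum: 73 genes held 0.261, 0.253, 0.250, 0.224, 0.243 and 0.220% (0.242 ± 0.0164%). The largest were the lipid-sensing receptor ppard (143 to 263 CPM, median 205), cebpd (89.1 to 245 CPM, median 202) and nr1h3, the liver X receptor alpha (147 to 204 CPM, median 172). cebpb was the steadiest, with 107, 120.3, 116, 127, 143 and 128 CPM. nr1d4b, of a receptor family that is part of the circadian clock, was the most uneven, with 18.1, 0.857, 13.3, 3.46, 22.8 and 9.94 CPM. Solute carriers and pumps of the plasma membrane held 1.68 ± 0.131%, led by the amino acid transporters slc38a4 (1584 to 3357 CPM, median 2382) and slc38a3 (841 to 1844 CPM, median 1179) and the bile salt export pump abcb11 (833 to 1496 CPM, median 993). The metal importer slc39a8 was their most uneven member, with 28.1, 3.03, 56.8, 0.988, 12.02 and 11.6 CPM.

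Small nuclear, nucleolar and cytosolic RNAs held 2.73, 1.93, 1.64, 1.72, 1.80 and 1.35% (1.86 ± 0.467%) after rn7sl1 was removed. rn7sk, which holds back transcription elongation, had 7016, 6139, 5054, 3788, 3484 and 3455 CPM, the RNA of RNase P (rpph1) 2900.1 to 5154 CPM, median 4111 and that of RNase MRP (rmrp) 1655 to 3101 CPM, median 2299. The splicing RNA u2 had 4150.4, 551, 2292, 881, 1097 and 687 CPM, with clutches 4 and 6 above the rest. The most uneven gene of the list was ENSDARG00000089201, one of several genes annotated as Metazoa_SRP, with 69.4, 0.396, 83.2, 2.14, 90.9 and 1.74 CPM. It was high in clutches 4, 6 and 8 and near 0 in clutches 5, 7 and 9. Genes for such RNAs occur in near-identical copies, so that their values also depend on how reads with several matches were counted.

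Functions that belong mainly to other cells or to dividing cells were minor. Exocrine pancreas enzymes held 0.158, 0.109, 0.557, 0.210, 0.141 and 0.338%, globins 0.0257 ± 0.0115%, proliferation genes 0.0263 ± 0.0177% and vitellogenins, the yolk proteins of adult female liver, 0.00476 ± 0.00178%. The trypsin genes prss59.2 and prss1 had 211, 178, 880.3, 397, 211 and 524 CPM and 219, 167, 765, 302, 187 and 503 CPM, and the chymotrypsin ctrb.1 148, 105, 523, 216, 111 and 310.4 CPM. All 3 ranked the pools in nearly the same way, with clutch 6 highest and clutch 9 second. The proliferation marker mki67 had 28.1, 7.98, 65.8, 2.63, 17.4 and 29.98 CPM, top2a 20.5, 2.64, 56.1, 1.32, 15.5 and 35.03 CPM and the replication clamp pcna 15.5, 20.1, 62.8, 9.71, 16.2 and 24.4 CPM, each highest in clutch 6 and lowest in clutch 7. Of the 7 proliferation genes with at least 10 CPM, 6 were highest in clutch 6 and 4 lowest in clutch 7, and 4 had both traits. The share of all genes of that level with these traits is not given here, so these counts are no result about this list. By mean CPM the largest of the 7 was mki67, with 25.3 CPM. Clutch 6 also had the largest TMM factor (1.18) and clutch 7 the smallest (0.858), and the part of scale was not tested. Among yolk protein genes, vtg7 had 25.1 to 75.1 CPM, median 47.1 and made up 98.0% of the list. Interferon response and antigen presentation held 0.0461 ± 0.00390% and DNA damage and repair 0.0633 ± 0.00585%. ifi27.5, of an interferon-induced family, had 19.3, 7.39, 0.0543, 43.8, 14.4 and 37.9 CPM, the value of clutch 6 being a single count.

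Functions of general cell upkeep held smaller shares. The cytoskeleton held 0.489 ± 0.0369%, led by krt8 (882 to 1254 CPM, median 1141), the actin gene actb2 (547 to 725 CPM, median 677) and krt18a.1 (351 to 560.4 CPM, median 369), both keratins being those of simple epithelia. krt18a.1 was highest in clutch 4 and lowest in clutch 7. The proteasome and ubiquitin list held 0.177, 0.213, 0.266, 0.162, 0.181 and 0.182%, highest in clutch 6, and its leading genes were the polyubiquitin genes ubb (105 to 212 CPM, median 157) and ubc (101 to 203 CPM, median 136). Splicing and RNA-binding proteins held 0.186, 0.171, 0.215, 0.148, 0.139 and 0.177%, also highest in clutch 6, where the spliceosome gene sf3b1 was nonetheless one of the steadier genes of the liver at 124 to 146 CPM, median 135. Histones held 0.0820, 0.0927, 0.0883, 0.0405, 0.0734 and 0.0737%, with clutch 7 lowest. The linker histone gene histh1l1 had 296, 365, 275, 158, 302 and 235 CPM and took the most counts of the list. h2ax, whose product marks DNA breaks, was the most uneven histone gene with 12.3, 3.17, 35.96, 2.96, 15.4 and 22.6 CPM, highest in clutch 6 and lowest in clutch 7. Of the 1022 genes with at least 100 CPM, 135, 163, 232, 194, 148 and 150 were highest in clutches 4 to 9. The numbers that were lowest were 136, 236, 221, 182, 136 and 111. Clutch 6 was most often highest, while clutch 7 was lowest less often than clutches 5 and 6. In the DNA damage and repair list the stress gene gadd45b was the most uneven, with 25.4, 57.6, 13.5, 90.3, 40.2 and 10.1 CPM, and the ligase gene lig3 the steadiest, at 25.8 to 32.3 CPM, median 28.6.

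Genes in no list held the rest of the counts. Named genes in no list held 32.4 ± 2.55% and IDs without a name 3.99 ± 0.436%. The largest without a name, ENSDARG00000102492, had 8309.9, 4649, 7454, 8529, 11639 and 11904 CPM and made up 21.9% of that second share. soul5, named for a haem-binding domain, had 3957, 8388, 6634, 6597, 4002 and 5099.7 CPM, and tpt1, a widely expressed growth-related gene, had 2703, 2529, 2202, 3388, 3204 and 2723 CPM. zgc:123103 had 3872, 2167, 4043, 2284, 5357 and 5455 CPM. IDs without a name were less even than named genes: among those with at least 10 CPM, 68 of 215 (31.6%) were variable by the measure defined next, and of the named genes in no list 275 of 4871 (5.65%).

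The spread of single genes was measured as the SD of log2 CPM over the 6 pools, for the 6306 genes with a mean of at least 10 CPM, which held 96.5% of the counts. The median SD was 0.35, and in the median gene the highest pool was 1.89 times the lowest. A gene was called steady where the highest pool was under 1.5 times the lowest, and variable where it was over 4 times. By these rules 1165 genes (18.5%) were steady and 478 (7.58%) were variable, and 3 genes had a pool at 0. Without clutches 4, 5, 6, 7, 8 and 9 in turn there were 1388, 1638, 1802, 1760, 1442 and 1425 steady genes, where fewer pools narrow the range by construction. The spread was smaller at higher levels: the median SD was 0.36 in the 3478 genes of 10 to 30 CPM, 0.33 in the 1806 genes of 30 to 100 CPM, 0.31 in the 861 genes of 100 to 1000 CPM and 0.27 in the 161 genes above that. Counting error was a small part of it: in the lowest of these classes the median CV was 25.1%, and the median CV that counting alone would give was 6.67%. Each function was therefore set beside genes of like level, the 500 genes nearest in mean CPM to each member. For the highest genes these 500 reach far lower levels and are nearly the same set. apoa1b at 52636 CPM and uroc1 at 673 CPM thus had the same value for comparison, 0.27. Among the 500 genes with the highest mean CPM, 78 were ribosomal proteins and 70 plasma proteins, so these functions were in part set beside themselves and each other.

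Most functions were less even than genes of like level. In 29 of 35 functions the median SD was above that of genes of like level. The 6 functions below it were ribosomal proteins, the citrate cycle, nuclear genes of oxidative phosphorylation, coagulation factors, translation factors and mitochondrial carriers. Ribosomal proteins were the steadiest, with a median SD of 0.20 against 0.27 for genes of like level, and 54 of 85 (63.5%) were steady. Of all genes 18.5% were steady, but this share rose with level, to 28.0% at 100 to 1000 CPM and 38.5% above that. Of the ribosomal protein genes, 81 had at least 100 CPM. Nuclear genes of oxidative phosphorylation had 0.25 against 0.32, and 38 of 94 were steady and none variable. Coagulation factors had 0.25 against 0.27 with 9 of 22 steady, the citrate cycle 0.25 against 0.31 with 8 of 21, and translation factors 0.28 against 0.33 with 22 of 65. When pools were scaled by TMM factors in place of library size, ribosomal proteins had 0.28 against 0.34 and nuclear genes of oxidative phosphorylation became the steadiest, with 0.25 against 0.32.

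Plasma proteins were at the other side of this comparison. Their median SD was 0.38 against 0.27, and 18 of 112 (16.1%) were variable, where 7.58% of all genes were. Within them apolipoproteins had 0.45, with 7 of 17 variable and 1 steady, carriers and acute phase proteins 0.40 with 9 of 47 variable, and complement 0.39 with 2 of 26 variable. Cytochrome P450 genes had 0.46 with 10 of 45 variable, conjugating enzymes 0.49 with 7 of 36, sterol and fatty acid synthesis 0.48 with 5 of 26, and mitochondrial mRNAs 0.48 with 1 of 13. Amino acid breakdown (0.33, 17 of 54 steady), fatty acid oxidation (0.34, 8 of 47 steady) and the liver transcription factors (0.35, 8 of 46 steady) were close to genes of like level, at 0.29, 0.33 and 0.33.

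Among functions with at least 3 genes of at least 10 CPM, the least even were exocrine pancreas enzymes, proliferation genes, globins, small RNAs and genes of iron and haem handling. Exocrine pancreas enzymes had a median SD of 0.92 against 0.32, with 19 of 21 variable. Without clutch 6 their median SD was 0.67. Proliferation genes had 0.90 with 4 of 7 variable (0.65 without clutch 6), globins 0.72 with 2 of 3, small RNAs 0.65 with 10 of 25, and genes of iron and haem handling 0.55 with 3 of 12. The CV of the sum of exocrine pancreas enzymes, 67.2%, was about that of their median member, 67.7%, whereas the CV of the apolipoprotein sum was 7.74% beside a median of 28.8% among its members.

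**Figure D4:**
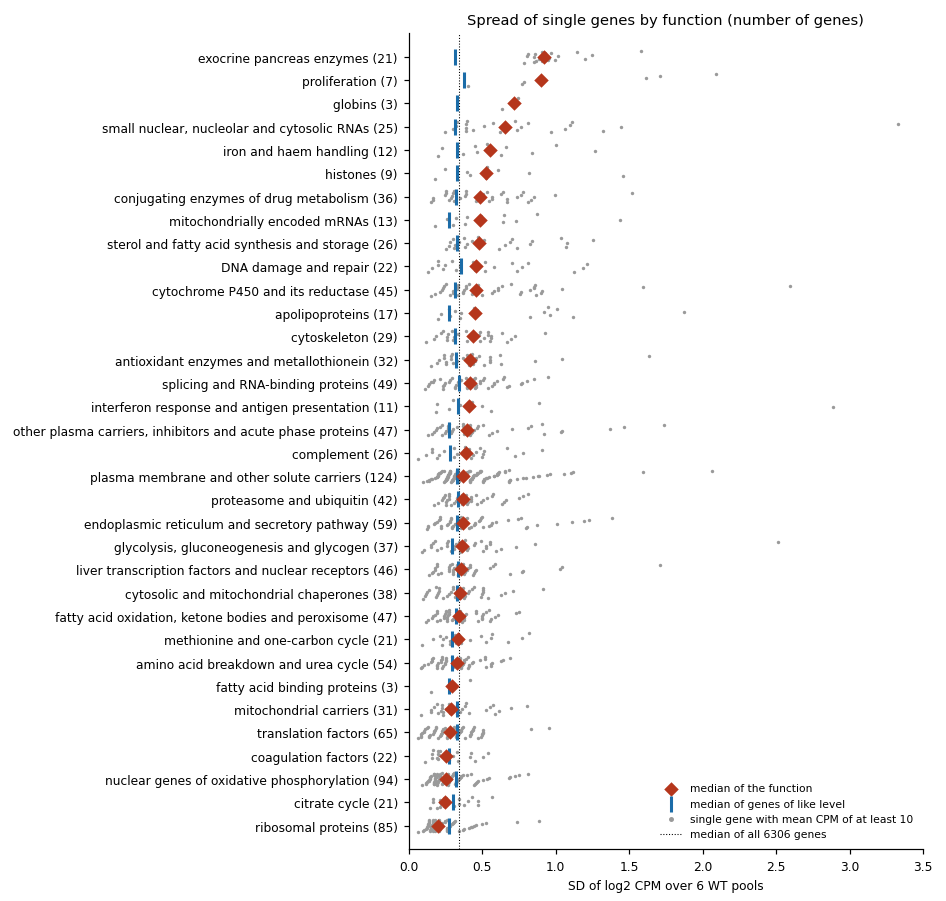
SD of log2 CPM over the 6 WT pools for single genes with a mean of at least 10 CPM (grey points) in each function with at least 3 such genes, with the median of the function (diamond), the median of genes of like level (bar) and the median of all 6306 genes (dotted line, 0.35). Ribosomal proteins had the smallest median (0.20) and exocrine pancreas enzymes the largest (0.92).

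Among single genes with at least 100 CPM, those of smallest spread included eif2s3b, c8b, rplp0, hao1, eif3ea, slc25a3, gars1, uroc1 and acat1. eif2s3b, a subunit of the initiation factor that brings the first transfer RNA, had 264, 255, 237, 263, 256 and 243 CPM. hao1, the glycolate oxidase of the liver peroxisome, had 462, 425, 486, 480.4, 470.4 and 492 CPM. The phosphate carrier slc25a3 had 574, 617, 583, 671, 582 and 589.9 CPM, and gars1, which charges the transfer RNA of glycine, had 119, 111, 130.0, 127, 123 and 117 CPM. The thiolase acat1 had 701, 708, 692, 785, 658 and 739 CPM. The SD of log2 CPM of these genes lay between 0.06 and 0.09, and between 0.13 and 0.24 when pools were scaled by TMM factors, so how even they were depended on the scale. rplp0 had 0.07 by library size and 0.17 with TMM factors.

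The 10 genes of largest spread were of several kinds. Beside hpxa and apoa4b.2 they included cyp2p9, a cytochrome P450, which had 1.60, 175, 68.9, 126, 132 and 192 CPM. Its SD was 2.59 over the 6 pools and 0.58 without clutch 4. gpx3, the glutathione peroxidase secreted to plasma, had 87.6, 52.3, 79.4, 58.6, 232 and 1020.2 CPM, and its SD of 1.64 was 0.85 without clutch 9. si:dkey-153m14.1 had 698, 883, 15708, 1384, 483 and 330.4 CPM and shared with zgc:158463 its high value in clutch 6. The other 4 had no name in the tables used. ENSDARG00000080300 had 1503, 608, 870.1, 6.83, 174 and 72.4 CPM, ENSDARG00000056909 93.4, 612, 15.1, 658, 553 and 988 CPM, ENSDARG00000103392 422, 43.3, 466, 62.8, 469 and 68.4 CPM and ENSDARG00000103617 482, 306, 248, 92.01, 58.8 and 26.7 CPM. ENSDARG00000103392 was high in clutches 4, 6 and 8 and low in clutches 5, 7 and 9, the same split of pools as in the Metazoa_SRP gene.

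**Figure D5:**
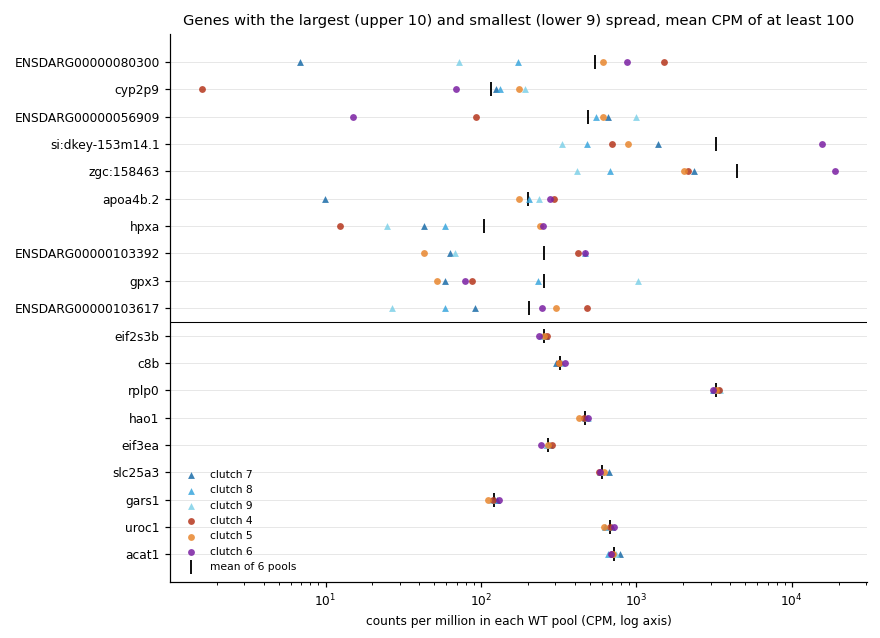
CPM in each of the 6 WT pools (log axis) of the 10 genes with the largest and 9 of the 10 with the smallest SD of log2 CPM among genes with a mean of at least 100 CPM, with 1 symbol per pool (triangles, clutches 7 to 9; circles, clutches 4 to 6) and a bar at the mean. For most of the upper genes 1 or 2 pools lie apart, such as clutch 4 for cyp2p9 (1.60 CPM) and clutch 7 for apoa4b.2 (9.96 CPM), while in the lower genes the highest pool is between 1.11 and 1.19 times the lowest.

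Some genes were high in 1 pool or a few. Among the 1022 genes with at least 100 CPM, the number with more than 2 times the median of the other 5 pools was 40 in clutch 6, 32 in clutch 5, 26 in clutch 4, 18 in clutch 7, 15 in clutch 8 and 18 in clutch 9. A gene could count in more than 1 pool, as hamp did in clutches 4, 8 and 9 and cyp1a1 and hebp2 did in clutches 5 and 6. In clutch 6, 9 of the 40 were exocrine pancreas enzymes, and these 9 were all the genes of that list among the 1022. A further group were chaperones of the endoplasmic reticulum: hsp90b1 had 109, 112, 835, 169, 84.9 and 144 CPM, canx 107, 109, 387, 102, 62.5 and 133 CPM and calr3a 96.9, 90.9, 229.9, 104, 78.5 and 135 CPM. The pancreas is also rich in these chaperones, and the exocrine pancreas marker sum was highest in the same pool, at 4307 CPM. The part of pancreas RNA in these values was not tested. In clutch 5 the group held cyp1a1, por, apod, the haem-binding hebp2 (565, 3503, 1760.2, 570.3, 442 and 385 CPM), the export pump abcg2a (643, 1592, 818, 456, 459.7 and 527 CPM) and gclc, which starts glutathione synthesis (91.4, 241, 145, 80.4, 83.2 and 88.9 CPM). In clutch 4 it held hamp, 3 small RNAs with u2 among them, and 3 ribosomal protein genes, rpl6, rpl26 and rpl37. Of the 1022 genes, 14 (1.37%) were small RNAs and 81 (7.93%) were ribosomal protein genes. rpl6 was also in the group of clutch 5, and u2 and rpl26 were also in that of clutch 6. In clutch 9, 6 of the 18 were exocrine pancreas enzymes, and in clutch 8 the group held apcs, hamp and the ceruloplasmin gene cp (201, 654, 258, 386, 1062 and 631 CPM). In clutch 7 it held mat2a (ENSDARG00000040334) and g6pc1, the last enzyme of glucose release (1005, 1283, 1384, 2902, 1773 and 1304 CPM). The second mat2a ID, ENSDARG00000037121, was in the group of clutch 5. These genes were named after their values were seen.

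Over all 6306 genes, clutches 6 and 7 were the least alike pair of pools, with a median absolute difference in log2 CPM of 0.54, and clutches 8 and 9 the most alike, with 0.28. The first principal component of log2 CPM, with 38.8% of the variance, had clutch 6 at one end and clutch 7 at the other. The second, with 22.3%, separated clutch 5 from the rest. Along the first component the pools stood in the order of their TMM factors. These were 1.11, 0.978, 1.18, 0.858, 0.934 and 0.975 in clutches 4 to 9. The part of the scale of each pool in these differences was not tested.

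Finally, clutches 7, 8 and 9 were compared with clutches 4, 5 and 6, to see whether the sets whose titles differ in wording also differ in their counts. The methods name NextSeq550 and HiSeq2500 sequencers where the labels name the second of them for every pool, and which pools ran on which is not given in the sources used here, so instrument and set cannot be told apart. By the quasi-likelihood test of edgeR with Benjamini-Hochberg adjustment, 0 of 14555 genes passed an adjusted p of 0.05 in either direction (0% higher and 0% lower), with a smallest adjusted p of 0.080. At an unadjusted p under 0.05 there were 1553 genes, of which 728 were higher and 825 lower in clutches 7 to 9. Other settings gave calls: DESeq2 called 205 genes (115 higher, 90 lower), and edgeR with no filter on low counts called 73 (42 higher, 31 lower). With 3 pools against 3, an exact permutation test cannot go below p = 0.10, so shares of counts were not tested.

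By the smallest p in each direction, 8 genes are given, of which 4 have names. itga10, an integrin subunit, had 0.329, 0.0796 and 0.0789 CPM in clutches 7 to 9, against 5.53, 8.11 and 7.55 CPM in clutches 4 to 6, the values of clutches 8 and 9 being a single count each. Its fitted log2 fold change of -5.13 ± 0.58 (SE) depends on how such low counts are moderated. mt-atp8 had 6.91, 12.8 and 15.9 CPM in clutches 7 to 9 and 71.9, 49.9 and 73.9 CPM in clutches 4 to 6, a log2 fold change of -2.22 ± 0.28. si:ch1073-464p5.2 had 35.7, 54.5 and 56.96 CPM in clutches 7 to 9 and 14.8, 11.4 and 8.53 CPM in clutches 4 to 6, a log2 fold change of 2.31 ± 0.29. The adjusted p of each of these named genes was 0.080 by edgeR. The splicing helicase dhx38 had 6.01, 7.08 and 7.65 CPM in clutches 7 to 9 and 19.2, 18.3 and 21.6 CPM in clutches 4 to 6, with an adjusted p of 0.16 by edgeR. Of the unnamed genes of this kind, ENSDARG00000102811, ENSDARG00000097844 and ENSDARG00000092704 had the higher values in clutches 7 to 9 and ENSDARG00000082789 the lower ones. None of the 8 genes passed in the edgeR fit (adjusted p between 0.080 and 0.17), while all 8 passed with no filter on low counts (edgeR, adjusted p between 0.00048 and 0.043) and in DESeq2 (adjusted p between 6.8e-13 and 0.0020). Leaving out 1 pool at a time gave adjusted p between 0.048 and 0.45 by edgeR, with 1 of the 8 genes passing without clutch 8 and none without any other pool.

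Between the sets, plasma proteins held 27.1, 26.9 and 27.8% of the counts in clutches 7 to 9, against 25.1, 26.01 and 23.9% in clutches 4 to 6, and the 2 sets did not overlap. Of the 35 lists, those without overlap by library size were apolipoproteins, conjugating enzymes, liver transcription factors and histones. For 3 pools against 3, such a lack of overlap goes with an exact permutation p of 0.10 at best, so by itself it shows no difference between the sets. Of all 6306 genes, 4.28% were higher in each of clutches 7 to 9 than in any of clutches 4 to 6, and 19.7% lower, by library size, while 12.4% were higher and 8.07% lower with TMM factors, so the balance of directions depends on the scale. Of the 112 plasma protein genes, 18 were higher and 8 lower in this way by library size. In the edgeR fit, the median log2 fold change of 131 plasma protein genes was 0.27, with 25 higher and 1 lower at an unadjusted p under 0.05, where 728 (5.00%) and 825 (5.67%) of all 14555 genes were. Other lists had a median of this size or larger, among them amino acid breakdown with 0.29 (16 higher and 4 lower of 60), conjugating enzymes with 0.37 (13 higher and 4 lower of 59) and the methionine cycle with 0.40 (3 higher and 2 lower of 28). apoa2 had 56216, 56202 and 59188 CPM in clutches 7 to 9, against 42965, 40829 and 38342 CPM in clutches 4 to 6, a log2 fold change of 0.73 ± 0.21 (SE) with an adjusted p of 0.31 by edgeR. apoa1b had 50188, 42868 and 49021 CPM in clutches 7 to 9, against 59226, 62526 and 51989 CPM in clutches 4 to 6. The sets did not overlap for apoa1b by library size, but with TMM factors the log2 fold change was -0.05 ± 0.23. Conjugating enzymes held 0.544, 0.636 and 0.578% in clutches 7 to 9, against 0.487, 0.440 and 0.461% in clutches 4 to 6. Plasma proteins, the apolipoproteins that are part of them, and conjugating enzymes were higher in clutches 7 to 9 without overlap by library size, and so also with TMM factors. The TMM factors of clutches 7 to 9 (0.858, 0.934 and 0.975) all lay below those of clutches 4 to 6 (1.11, 0.978 and 1.18). A list that was higher without overlap by library size thus had to stay so, and the second scale is no further support. With TMM factors, several other lists were also higher without overlap. They were complement, coagulation factors, the citrate cycle, the methionine cycle, fatty acid oxidation, nuclear genes of oxidative phosphorylation and the cytoskeleton. No list was lower without overlap on that scale. Liver transcription factors and histones were lower in clutches 7 to 9 without overlap by library size, and overlapped with TMM factors.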

How the data were processed

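RNA was extracted with Trizol from pools of 20 dissected livers, treated with DNase, depleted of ribosomal RNA (RiboZero) and sequenced as paired-end reads of 150 bp. Read counts per gene were deposited by the authors, whose processing notes name HISAT2, HTSeq, the GRCz10 assembly, MultiQC 1.7 and DESeq2 (the methods give another MultiQC version). The counts were whole numbers, not normalized, for 32105 Ensembl IDs, of which 26269 had a name. The 6 WT pools held 15285359 to 23322479 counts each, and 12151400 to 18409781 after rn7sl1 and ENSDARG00000080337 were left out.

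CPM and shares were computed from that remainder without further scaling, in Python 3.11.15 with pandas 2.3.3. The spread was the SD of log2 CPM with a prior count of 2, in genes with a mean of at least 10 CPM. Clutches 7 to 9 were compared with clutches 4 to 6 by the quasi-likelihood test of edgeR 4.0.16 (R 4.3.3), with TMM factors, filterByExpr (minimum count 10, minimum total 15) and Benjamini-Hochberg adjustment, called at an adjusted p under 0.05. The scripts were tested on simulated data. DESeq2 1.42.0 was an alternative. Nothing in the sources used here says that the 6 pools share parents or a day. With 1 pool per clutch, a p sets the difference between the sets against the spread between pools within a set. That spread may be biological or technical. No gene lengths or sequences of the build were used, so levels were not compared per length.

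Members, gene lists and tests were chosen with earlier results of these data known. Gene lists written with human-style symbols were matched to zebrafish symbols with an added a, b or number, a rule set after the names had been seen. The text names, apart from a few genes that are not reported here, the 25 genes with the highest mean CPM. In each list it names from the 3 highest, the largest-SD and the smallest-SD gene. It also names the 10 largest and 10 smallest SD at a mean of at least 100 CPM, and the 4 smallest p in each direction between the sets. Other genes, such as apod, apoeb, hamp, apcs, crp5, fetub, a2ml, gc, selenop, ttr, c8a, f2, mat1a, por, cyp7a1, u2, tpt1 and those given for single pools, were chosen after their values were seen. Where several IDs share a symbol, the one with the most counts is given unless its ID is printed.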

Additional observations from a re-analysis of the deposited data

Results flagged for a closer look

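In 25 results 1 pool lay apart from the other 5 by Dixon's criterion for 6 samples (the gap to the nearest pool as a part of the whole range), in 4 of 36 functions, 0 of 11 marker lists and 21 of 212 genes (those of the naming rule and those named after their values were seen). Chance flags about 1 in 20 groups, but many of these genes were chosen for a large spread or a high pool, so the number of them is no test. Shares of genes in no list were not among the 36 functions. That of named genes in no list also had clutch 6 apart, with a Dixon ratio of 0.881. Clutch 6 was the pool apart in 13 of the 25 results. It was the highest for the share of the endoplasmic reticulum and secretory pathway (0.901%, next pool 0.633%), zgc:158463 (19004 CPM, next 2356), si:dkey-153m14.1 (15708 CPM, next 1384), c3a.1 (5168 CPM), the ER chaperones hsp90b1 (835 CPM, next 169) and canx (387 CPM, next 133), the ER co-chaperone dnajb11 (104 CPM, next 40.1), the disulfide isomerase pdia2, known in mammals from pancreas (89.1 CPM, next 22.5), pcna (62.8 CPM), the metal transporter slc11a2 (65.9 CPM), dlat of the pyruvate dehydrogenase complex (26.9 CPM) and the histone gene h3-3b (65.3 CPM). It was the lowest for ahcy (2408 CPM, next 3011).

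Clutch 5 was highest for the share of cytochrome P450 genes (1.73%, next 1.18%; 20.4% of the list's counts are cyp1a1), the export pump gene abcg2a (1592 CPM, next 818) and rbp4 (15638 CPM, next 13327). Clutch 4 was highest for krt18a.1 (560.4 CPM, next 392), hmox1 (142 CPM, next 51.6) and gck (165 CPM, next 45.2). Clutch 7 was highest for the mat2a ID ENSDARG00000040334 (459.8 CPM, next 181). It was lowest for the histone share (0.0405%, next 0.0734%) and for cpt1b, a carnitine palmitoyltransferase known in mammals from muscle (16.5 CPM, next 49.5). Clutch 8 was highest for the proteasome assembly gene psmg3 (13.8 CPM, next 10.8). Clutch 9 was highest for the share of coagulation factors (1.90%, next 1.76%) and for gpx3 (1020.2 CPM, next 232).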

How the results depend on the processing

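No fold change of the 8 genes given between the sets changed sign. That is no test, since the 8 genes were chosen by the smallest p in these same pools. The balance of genes whose 2 sets do not overlap did turn round with the scale: by library size 4.28% were higher and 19.7% lower in clutches 7 to 9, and with TMM factors 12.4% were higher and 8.07% lower. The count of genes that differ between clutches 7 to 9 and clutches 4 to 6 was 0 with edgeR, 205 with DESeq2, 73 with no filter on low counts, and between 0 and 1 when each pool was left out in turn (1 without clutch 8); it was 0 with DESeq2 size factors in edgeR, with library size only and with both removed RNAs kept. With those RNAs kept in the total, plasma proteins held 20.2%, apolipoproteins 11.5%, ribosomal proteins 5.81% and glycolysis 3.13%. There were 2950 variable genes at a mean CPM of at least 1. With each pool left out in turn there were between 1388 and 1802 steady genes. Within clutches 7 to 9 there were 3528 steady and 131 variable genes, and within clutches 4 to 6 there were 3456 and 225, where fewer pools narrow the range by construction. These within-set values, and the removal of zgc:158463 and si:dkey-153m14.1 from the totals, and that of cyp1a1 from the P450 list (mean share 0.936%), were chosen after seeing the data. With TMM factors, 26 of 80 spreads of named genes moved by more than their criterion, and the number of functions above genes of like level was 27 in place of 29. Shares and CPM per kb of gene were not run, since no gene lengths were used here. No paired analysis was possible because only WT pools were analysed, each from its own clutch, and the 2 sets share no clutch number.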

Other observations

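A pair of IDs split the pools in the same way, with clutches 4, 6 and 8 high and clutches 5, 7 and 9 low. ENSDARG00000103392 had 422, 466 and 469 CPM in clutches 4, 6 and 8, and 43.3, 62.8 and 68.4 CPM in clutches 5, 7 and 9. ENSDARG00000089201, annotated as Metazoa_SRP, had 69.4, 83.2 and 90.9 CPM in clutches 4, 6 and 8, and 0.396, 2.14 and 1.74 CPM in clutches 5, 7 and 9. The labels give no property that separates these pools, and the split was noticed after the values were seen.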
